A study of Homo sapiens with 8 samples.

Results

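The genes described here encode the proteins of the cytosolic ribosome. They were taken from the GENCODE version 44 annotation as the protein-coding genes whose symbols are RPL or RPS followed by a number, with RPLP0, RPLP1, RPLP2 and RPSA. This gave 86 of 20033 protein-coding genes, of which 46 encode proteins of the large subunit, 31 encode proteins of the small subunit and 9 are paralogs with a symbol of their own, such as RPL3L or RPS27L. ChIP-seq, the sequencing of DNA recovered with an antibody to TAZ, was done in MCF10A, a human mammary epithelial line that is not transformed. All cells carried TAZ-4SA, a constitutively active form of the co-activator TAZ, under a doxycycline (Dox)-inducible promoter, and were either left without Dox or given it at 0.05 µg/ml over 24, 48 or 72 h. Each of the 4 conditions had 1 TAZ library and 1 IgG library, 8 in all, and 1 deposited peak list. There were no replicates, so the values below compare single libraries and carry no test, and no source used here says whether the cells without Dox were free of the transgene product.

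The ribosome consists of a small subunit, which reads the mRNA, and a large subunit, which joins the amino acids. Ribosomal protein (RP) genes are active in every growing cell, and most of their transcripts begin with a C inside a run of pyrimidines, the 5′ terminal oligopyrimidine tract through which mTOR signalling controls their translation. TAZ cannot bind DNA by itself and is brought there by partner proteins, mainly the TEAD factors, while RP promoters are known for sites of ETS family factors, YY1 and a palindromic CG element.

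A gene was counted as having a TAZ peak when a peak summit lay within 1 kb of a transcription start site (TSS) annotated for that gene. The summit sequences of a few members are printed first, since the counts below turn on what these windows hold. Each is the hg38 sequence of a summit with 100 bp to each side, given in the direction of the gene. RPS7 (chr2:3575062-3575262, plus strand) and RPL29 (chr3:51995822-51996022, minus strand) had the highest fold enrichment without Dox, and RPL27 (chr17:42998229-42998429, plus strand) the highest at 24 h. RPS3 (chr11:75399370-75399570, plus strand) was in the list without Dox and among the highest at 72 h, and RPS26 (chr12:56041821-56042021, plus strand) was first listed at 24 h. RPS27A (chr2:55232430-55232630, plus strand) and RPL7A (chr9:133348067-133348267, plus strand) held a TEAD consensus close to their own main TSS at 72 h. RPS28 (chr19:8321264-8321464, plus strand) is an example with the palindromic CG element. Capitals mark consensus matches on either strand. These are ETS (CTTCCGG, the reverse complement of CCGGAAG) in RPL29, YY1 (AAGATGG) and a TATA box (TTTATA, the reverse complement of TATAAA) in RPS3, and TEAD (GCATTCC) in RPS27A. RPL7A has a TATA box directly followed by TEAD (GGAATGC, the reverse complement of GCATTCC), then the CG element TCTCGCGA and YY1. RPS28 has YY1 (CCATCTT, the reverse complement of AAGATGG) and TCGCGAGA, the reverse complement of TCTCGCGA. The windows of RPS7, RPL27 and RPS26 held none of the 12 motifs searched.
RPS7, no Dox summit: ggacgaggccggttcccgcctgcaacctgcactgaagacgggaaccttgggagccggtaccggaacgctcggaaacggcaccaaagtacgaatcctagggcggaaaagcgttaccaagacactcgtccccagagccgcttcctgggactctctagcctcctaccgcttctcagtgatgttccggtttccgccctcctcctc
RPL29, no Dox summit: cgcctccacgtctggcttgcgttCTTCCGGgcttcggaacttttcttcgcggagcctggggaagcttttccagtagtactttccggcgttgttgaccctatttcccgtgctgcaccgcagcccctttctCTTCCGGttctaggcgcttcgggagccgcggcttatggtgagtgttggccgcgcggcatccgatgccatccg
RPL27, Dox 24 h summit: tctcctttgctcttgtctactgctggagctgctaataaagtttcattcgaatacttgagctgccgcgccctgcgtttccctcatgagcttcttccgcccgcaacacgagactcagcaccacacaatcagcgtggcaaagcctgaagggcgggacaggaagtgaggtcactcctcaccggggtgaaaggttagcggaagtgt
RPS26, Dox 24 h summit: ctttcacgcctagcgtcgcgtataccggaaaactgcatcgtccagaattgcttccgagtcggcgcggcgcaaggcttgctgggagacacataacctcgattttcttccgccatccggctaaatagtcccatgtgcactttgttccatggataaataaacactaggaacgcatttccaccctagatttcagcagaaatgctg
RPS3, no Dox summit: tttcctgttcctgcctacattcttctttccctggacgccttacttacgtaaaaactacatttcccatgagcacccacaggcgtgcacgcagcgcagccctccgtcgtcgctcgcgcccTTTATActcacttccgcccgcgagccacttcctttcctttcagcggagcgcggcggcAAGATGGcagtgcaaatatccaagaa
RPS27A, Dox 72 h summit: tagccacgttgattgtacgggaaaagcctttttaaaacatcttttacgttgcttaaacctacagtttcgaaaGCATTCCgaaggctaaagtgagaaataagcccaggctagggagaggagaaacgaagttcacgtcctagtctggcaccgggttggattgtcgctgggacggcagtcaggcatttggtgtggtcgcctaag
RPL7A, Dox 72 h summit: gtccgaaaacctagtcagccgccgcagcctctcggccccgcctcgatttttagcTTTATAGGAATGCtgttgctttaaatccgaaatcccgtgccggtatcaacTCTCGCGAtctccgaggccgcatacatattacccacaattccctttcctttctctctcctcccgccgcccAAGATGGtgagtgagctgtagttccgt
RPS28, Dox 72 h summit: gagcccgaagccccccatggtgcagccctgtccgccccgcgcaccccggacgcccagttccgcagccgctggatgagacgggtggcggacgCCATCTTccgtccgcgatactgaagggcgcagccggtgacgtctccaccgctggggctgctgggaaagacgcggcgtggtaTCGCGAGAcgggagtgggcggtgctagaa

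The first question was how many RP genes carried a TAZ peak at each time. The share of RP genes with a peak was above that of all protein-coding genes without Dox, at 24 h and at 72 h, and close to it at 48 h. Without Dox 14 of the 86 RP genes had a peak (16.3%, against 8.45% of all protein-coding genes), at 24 h 4 had one (4.65%, against 1.54%), at 48 h 6 (6.98%, against 5.11%) and at 72 h 68 (79.1%, against 53.4%). At 24 and 48 h the counts were thus small in both sets, and at 72 h most genes of both sets were listed. Without the 9 paralogs, the shares of the remaining 77 RP genes were 18.2% without Dox, then 5.19%, 6.49% and 84.4% along the 3 Dox times. Both subunits were represented, with 7 large subunit and 7 small subunit genes listed without Dox, and with 38 of 46 large subunit (82.6%) and 27 of 31 small subunit genes (87.1%) listed at 72 h. Of the paralogs 1 had a peak at 48 h and 3 at 72 h. The list without Dox held 2431 peaks and those of 24, 48 and 72 h held 2469, 11767 and 38667, and their genome-wide background coverage was 1.49, 1.42, 2.84 and 2.01 fragments in the same order, so that the depth was not the same. Thinned to the lowest background and held to a common threshold, the lists held 14 RP genes without Dox, 4 at 24 h, 2 instead of 6 at 48 h and 67 at 72 h. With a window of 500 bp the count at 48 h was 3, and 2 of its 6 peaks lay over 1 kb from the main TSS of the gene.

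**Figure D1:**
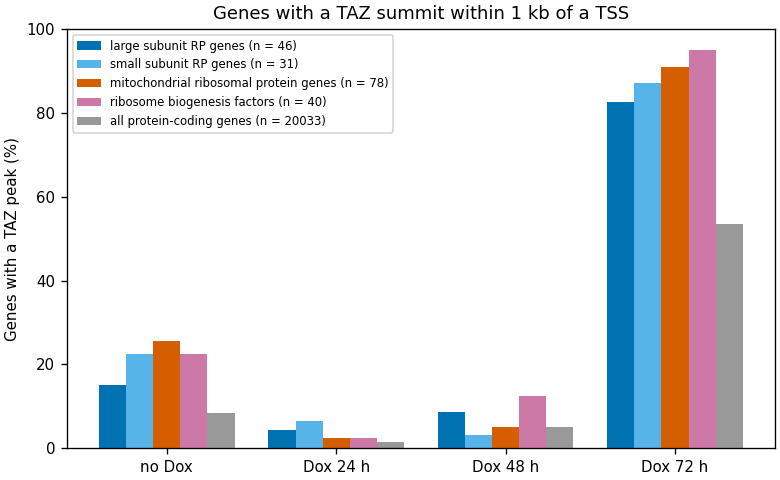
Share of genes (%) with a TAZ summit within 1 kb of a TSS in each of the 4 peak lists, with 1 bar per gene group and no error bars because each list is a single library. Large subunit genes reached 82.6% and small subunit genes 87.1% at Dox 72 h, against 53.4% of all protein-coding genes.

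Other genes of the translation machinery were counted in the same way to set RP genes beside them. At 72 h the RP share of 79.1%, or 84.4% without the 9 paralogs, lay below that of most related lists. A peak was present at 71 of 78 mitochondrial ribosomal protein genes (91.0%) and 38 of 40 ribosome biogenesis factors (95.0%). It was also present at 33 of 35 translation initiation factors (94.3%). Of 12 elongation factors 9 were listed. Without Dox the RP share of 16.3% stood beside 20 mitochondrial ribosomal protein genes (25.6%), 9 biogenesis factors (22.5%), 6 initiation factors (17.1%) and 2 elongation factors (16.7%). At 24 h RP genes had 4 listed members, against 2 mitochondrial ribosomal protein genes and 1 gene each of the biogenesis, initiation and elongation lists. The 4 ribosomal proteins whose symbols fall outside the naming scheme, among them FAU and RACK1, all had a peak at 72 h and 1 had one without Dox. These lists were not matched on expression, so the share expected of any set of active genes was not tested.

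Members were then grouped by the lists in which they appeared. Most RP genes, 50 of 86, were listed at 72 h alone, 18 were listed at 72 h and in at least 1 earlier list, 1 was listed without Dox alone and 17 in no list. Of the 14 genes listed without Dox, only RPS7 was listed at 24 h (7.14%, against 9.34% of all protein-coding genes listed without Dox), and RPL27A, RPL37 and RPL6 at 48 h (21.4%, against 15.8%). The summit of RPL6 at 48 h lay 9758 bp upstream of its main TSS, and that without Dox 117 bp downstream, so these are different sites. With the main TSS alone, 1 gene listed without Dox was listed again at 48 h. At 72 h 13 of the 14 were listed again (92.9%, against 96.3%). Few of the genes listed without Dox were thus listed at 24 and 48 h, among RP genes and in the whole list. A gene absent from a list had no peak at the threshold of that list, which is not a measured absence of signal, because coverage outside peaks was not analysed here. At the lowest background of a list a summit needed a fold enrichment of at least 3.97 without Dox to be listed, and of 4.14, 3.36 and 3.26 at the Dox times in order.

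**Figure D2:**
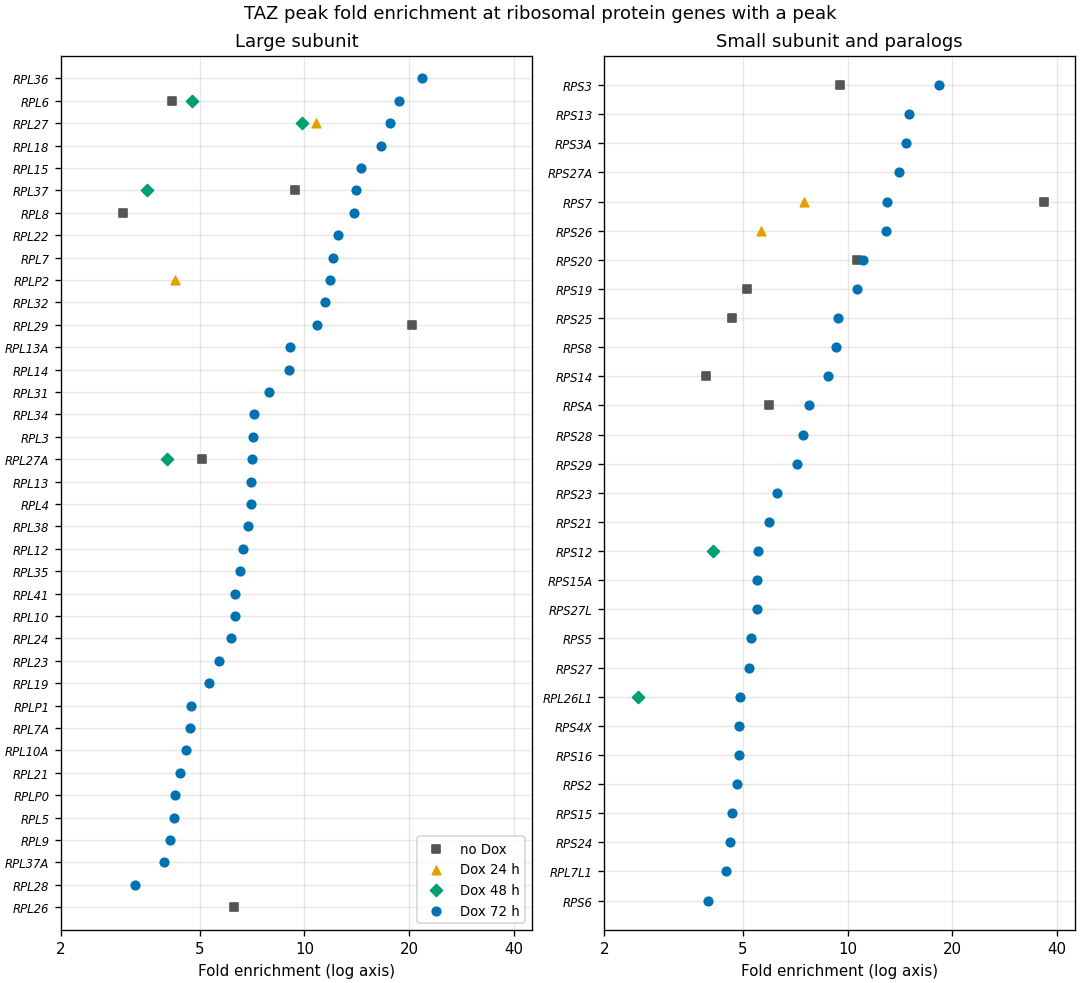
Fold enrichment (log axis) of the strongest TAZ peak of RP genes with a peak, 1 row per gene ordered by the value at Dox 72 h, with a symbol for each list. Circles of Dox 72 h run from 3.26 at RPL28 to 21.9 at RPL36, and the square of RPS7 without Dox at 36.6 is the highest value of any member. The circle of RPL36 is a peak 9616 bp upstream of its main TSS, and that of RPL6 a peak 9790 bp upstream.

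Fold enrichment, the authors' ratio of the ChIP signal at a summit to its local background with 1 added to both, was used to compare the strength of single peaks. The intervals given with it are 95% Poisson intervals of the fragment count at the summit and cover counting error only. The strongest peak of any RP gene was that of RPS7 without Dox. RPS7 encodes a small subunit protein that also binds MDM2. Its fold enrichment was 36.6 (30.8 to 43.3) without Dox, from 136 fragments over a background of 2.74, then 7.48 (5.25 to 10.4) at 24 h from 34 fragments, no peak at 48 h, and 12.9 (10.6 to 15.7) at 72 h from 100 fragments over a background of 6.80. The summits lay 98, 81 and 82 bp upstream of the main TSS, so the site was the same and the value without Dox stood above both later ones with no overlap of the intervals. RPL29, a large subunit protein also known as a heparin-binding protein, had 10.9 (8.09 to 14.3) at 72 h, against 20.4 (15.9 to 25.8) without Dox, with summits 3 and 27 bp upstream. Among the RP genes listed in both conditions, RPS7 and RPL29 were the only ones whose fold enrichment was lower at 72 h than without Dox.

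The other members listed without Dox had lower values at the start. RPS20, a small subunit gene on chromosome 8, had 11.1 at 72 h and 10.7 without Dox, and the intervals overlapped over most of their length. RPS3, a small subunit protein at the mRNA entry channel that also has a role in DNA repair, had 18.2 (14.6 to 22.6) at 72 h, against 9.48 (6.36 to 13.6) without Dox. RPL37 had 9.42 without Dox, a low 3.53 at 48 h and then 14.0 at 72 h. RPL8, a large subunit protein near the peptidyl transferase centre, had 13.9 (11.6 to 16.4) at 72 h, against 3.01 (2.02 to 4.33) without Dox, the lowest value of that list among RP genes. The remaining genes lay between 3.91 and 6.28 without Dox. RPSA, the laminin receptor precursor of the small subunit, had 7.74 at 72 h and 5.94 without Dox. RPS19, the gene most often mutated in Diamond-Blackfan anaemia, had 10.7 at 72 h, with its summit 541 bp upstream, and 5.15 without Dox, with its summit 232 bp upstream. RPS14, one of the genes lost in the 5q- syndrome, had 8.77 at 72 h and 3.91 without Dox. RPS25 had 9.41 at 72 h and 4.65 without Dox. The summits of RPS19, RPS14 and RPS25 at 72 h lay 248 to 309 bp from those without Dox, while the summits of RPS3, RPS20, RPS7 and RPL29 differed by at most 36 bp between the lists. RPL26, which also promotes translation of p53 mRNA, had no peak within 1 kb at 72 h, when the nearest summit lay 2006 bp from its main TSS with a fold enrichment of 21.5, and a peak of 6.28 without Dox with its summit 676 bp upstream.

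For the 13 RP genes listed in both conditions, the ratio of fold enrichment at 72 h to that without Dox had a median of 1.68 (quartiles 1.30 and 2.07), against a median of 1.35 (0.864 and 2.22) for 1617 other protein-coding genes. The ratio was below 1 for 2 of the 13, RPS7 at 0.353 and RPL29 at 0.531, against 32.3% of all 1630 protein-coding genes listed in both. The counting intervals did not overlap for 8 of the 13 genes, of which RPL6, RPL8, RPS14, RPS19, RPS25 and RPS3 had the higher value at 72 h. Intervals that did not overlap were also found among the 1617 other genes. They were not counted there, so whether 8 of 13 is unusual is not known. RPL6 compares different sites and is described below, and with only the genes whose summits lay within 500 bp of each other, an alternative chosen after seeing the data, the median ratio was 1.59. With only peaks of a −log10 q of at least 10, 5 RP genes were listed in both and the median ratio was 1.04. The genes with a ratio below 1 were among those that started highest. Of the 3 RP genes with a fold enrichment of at least 10 without Dox 2 had the lower value at 72 h, as did 78.7% of the 427 other genes above the same bound. RP genes had a median fold enrichment of 5.54 without Dox and mitochondrial ribosomal protein genes one of 16.3. The mitochondrial list had a median ratio of 0.888 over 20 genes, and 14 of them were lower at 72 h. A ratio between lists that were called with different backgrounds is not a ratio of bound TAZ.

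**Figure D3:**
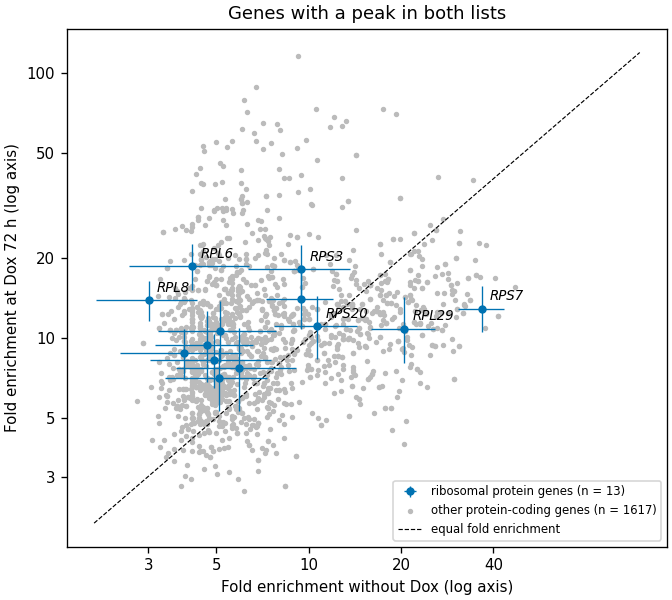
Fold enrichment at Dox 72 h against fold enrichment without Dox (log axes) for genes with a peak in both lists, with blue points for the 13 RP genes and their 95% counting intervals, grey points for 1617 other protein-coding genes and a dashed line at equal values. RPS7 and RPL29 lie below the line, RPS20 near it and the other RP genes above it, of which RPL6 is measured at a different site in each list.

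RP genes listed at 24 or 48 h were few, and they are given in full. RPL27, a large subunit protein, was the only member listed at all 3 Dox times and not without Dox. Its fold enrichment at 24 h was 10.8 (7.60 to 14.9), at 48 h it was 9.82 (7.27 to 13.0) and at 72 h it was 17.7 (14.6 to 21.2), with summits 90, 151 and 143 bp upstream of its main TSS. The interval at 24 h overlapped both others, and those of 48 and 72 h did not overlap. RPLP2, an acidic stalk protein that recruits elongation factors, had 11.9 (9.53 to 14.6) at 72 h, against 4.24 (2.53 to 6.73) at 24 h, with summits 380 and 303 bp upstream. RPS26 had 12.9 (10.2 to 16.2) at 72 h, 118 bp upstream of the main TSS, against 5.64 (3.42 to 8.85) at 24 h, 3 bp downstream. RPLP2 and RPS26 were absent from the list of 48 h, the list with the highest background. RPS12 had 5.53 (3.88 to 7.67) at 72 h, 177 bp upstream, and 4.09 (2.55 to 6.28) at 48 h, 552 bp upstream. The paralog RPL26L1 had 4.90 (3.57 to 6.56) at 72 h and 2.51 (1.63 to 3.71) at 48 h, and the intervals of both genes overlapped. RPS7, RPL37, RPL27A and RPL6, described with the genes listed without Dox, complete the members of these lists.

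At 72 h the median fold enrichment over the 68 listed RP genes was 7.03 (quartiles 5.14 and 11.2), against 6.78 over all listed protein-coding genes. In the list without Dox the median was 5.54, against 6.06 for all listed genes, at 24 h it was 6.56, against 7.08, and at 48 h it was 4.06, against 5.81. In the lists as deposited, the median fold enrichment of RP genes was thus above that of all listed genes at 72 h only, by a small margin. The RP median at 72 h was 6.76 with the main TSS alone and 6.55 after thinning to the lowest background. The median over all listed genes was not recomputed for these alternatives, so the order at 72 h is not settled. The highest values at 72 h belonged to RPL36 with 21.9 (17.8 to 26.6), RPL6 with 18.7 (15.1 to 22.8), RPS3 with 18.2, RPL27 with 17.7 and RPL18 with 16.6 (13.5 to 20.2). The peaks of RPL36 and RPL6 lay 9616 and 9790 bp upstream of the main TSS, near the TSS of other genes. At their main TSS RPL36 had 4.48 and RPL6 8.46. RPS13 had 15.0, RPS3A 14.7, RPL15 14.5, RPL37 14.0 and RPS27A, which encodes a fusion of ubiquitin with a small subunit protein, 14.0. Neighbours in this order overlapped in their counting intervals. The lowest values were 3.26 (1.88 to 5.32) at RPL28, 3.95 at RPL37A and 3.96 at RPS6, the substrate of the S6 kinases. RPL5, which binds MDM2 together with RPL11 and 5S rRNA, had 4.22, and the stalk gene RPLP0 had 4.26. In all, 20 of the 68 listed members had a fold enrichment of at least 10 at 72 h, RPL36 and RPL6 only through peaks at an alternative TSS. The upper quartile over all listed protein-coding genes was 9.87, close to this bound. The 18 genes that were also in an earlier list had a median of 11.0 at 72 h, against 6.22 for the 50 listed at 72 h alone. Other genes split likewise, with 10.8 over 2384 genes and 6.11 over 8247.

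The next question was where the peaks lay relative to the TSS. Summits at RP genes at 72 h sat close to the main TSS, that of the Ensembl canonical transcript, and mostly just upstream. The median position was −82 bp (negative is upstream), 52 of 68 summits were upstream and 57 (83.8%) lay within 250 bp. For the 10631 other listed genes the median was −42 bp, 6382 were upstream and 59.8% lay within 250 bp. Closeness was not particular to RP genes, since 90.1% of listed mitochondrial ribosomal protein genes lay within 250 bp. The shares of biogenesis, initiation and elongation factors were 73.7%, 60.6% and 55.6%. Without Dox 11 of 14 RP summits (78.6%) lay within 250 bp of the main TSS, against 58.5% of other listed genes, at 24 h 3 of 4, and at 48 h 2 of 6. The median width of the RP peaks at 72 h was 1067.5 bp, against 1007 bp. Where the distance was measured to the nearest TSS of any transcript, the median at 72 h was 76.5 bp for RP genes and 88 bp for all protein-coding genes. RP genes have many annotated transcripts, with 1 to 22 distinct TSS per member, and some listed peaks lie at a TSS far from the main one.

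**Figure D4:**
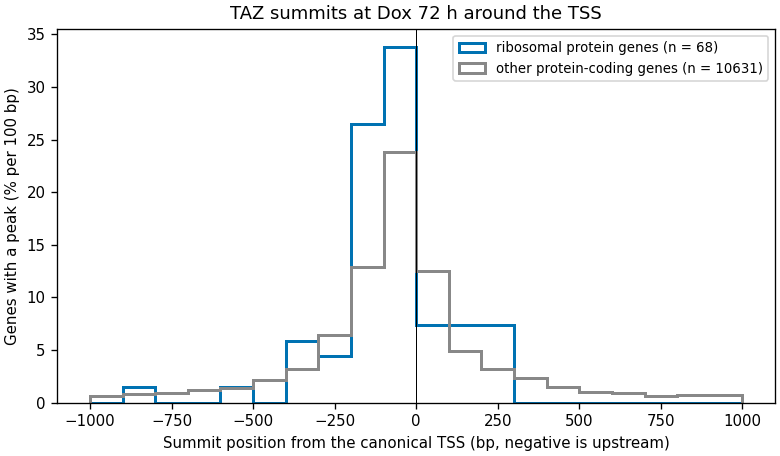
Position of the strongest TAZ summit at Dox 72 h relative to the canonical TSS (bp, negative is upstream), as the share of genes with a peak (% per 100 bp), for 68 RP genes and 10631 other protein-coding genes, where the summits over 1 kb from this TSS, 3 and 1914, count in n and are not drawn. RP summits gather upstream of the TSS, with a median of −82 bp against −42 bp for the other genes.

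Of the 73 member peaks at 72 h, 5 lay over 1 kb from the main TSS of the RP gene and 15 had the main TSS of another gene within 1 kb. The highest value of 72 h was among the first kind. The peak of RPL36 with 21.9 lay 9616 bp upstream of the main TSS, at an alternative TSS, with the main TSS of MICOS13 163 bp and that of HSD11B1L 348 bp away. Its peak at the main TSS had 4.48 (3.07 to 6.34). RPL6 behaved in the same way, with 18.7 at 72 h and 4.77 at 48 h at summits 9790 and 9758 bp upstream of the main TSS, which lie 448 and 416 bp from the main TSS of PTPN11, which encodes the phosphatase SHP2. At the main TSS RPL6 had 8.46 (6.13 to 11.4) at 72 h and 4.17 (2.60 to 6.40) without Dox, with summits 79 bp upstream and 117 bp downstream. RPL27A had a fold enrichment of 5.09 without Dox, of 4.02 at 48 h and of 7.06 at 72 h, at summits 6285, 5812 and 6219 bp downstream of the main TSS. At 72 h a separate peak of 5.23 lay 137 bp downstream of the main TSS and 264 bp from that of TRIM66. RPL3 and RPS29 had a minor peak of this kind at 72 h with 4.13 and 6.86, the one of RPS29 49 bp from the main TSS of LRR1. Values at such sites cannot be assigned to the RP gene or its neighbour from these lists.

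Several RP genes share their promoter with a neighbour on the other strand. A protein-coding TSS on the opposite strand lay within 1 kb of the main TSS of 13 RP genes, among them RPL12 with LRSAM1, RPL15 with NKIRAS1, RPL18 with SPHK2, RPS25 with TRAPPC4, RPL7A with MED22 and RPL9 with LIAS. Of these 13, 12 had a peak at 72 h with a median fold enrichment of 7.24, against 56 of the other 73 with a median of 6.60. The other 73 include all 9 paralogs, of which 3 had a peak at 72 h, so the 2 sets differ in make-up. Of all protein-coding genes 53.4% had a peak at 72 h, and the same split was not made for them. The summit of RPS25 lay 347 bp upstream of its main TSS at 72 h, where it was 76 bp from that of TRAPPC4, and 39 bp upstream without Dox. The summits of RPL9 and RPL7A lay 29 and 36 bp from the main TSS of LIAS and MED22.

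The 17 genes without a peak in any list were 7 large subunit genes, 4 small subunit genes and 6 paralogs. The large subunit genes were RPL11, RPL17, RPL23A, RPL30, RPL35A, RPL36A and RPL39, and the small subunit genes included RPS9, RPS10 and RPS18. The paralogs were RPL3L, RPL10L, RPL22L1, RPL39L and the Y-linked RPS4Y1 and RPS4Y2, of which RPL3L is known from muscle and RPL10L and RPL39L from testis. The nearest summit of 72 h lay 2111 bp from the main TSS at RPL23A, with a fold enrichment of 16.7, 4474 bp away at RPL3L, 5247 bp at RPL17 and at least 17301 bp away at the others. At RPS4Y1 and RPS4Y2 it lay 8452962 and 9034091 bp away. Whether the line carries a Y chromosome was not examined, so their absence cannot be told apart from a missing chromosome. For RPS9 and RPS18 the reference itself holds further copies. Of the 471 words of 31 bp around the main TSS, 100% at RPS18 and 93.4% at RPS9 also occur on alternate or unplaced sequences of hg38, and at RPS10 25.9% occur at other sites of the primary chromosomes. The lists held peaks on alternate sequences, 35 of 38667 at 72 h, so these were part of the reference used for mapping, and none of them lay on a copy of these promoters. The absence of RPS9 and RPS18 from the lists cannot be told apart from reads that matched several places and were not used.

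RP genes have many processed pseudogenes, copies of their mRNA inserted elsewhere in the genome, which share exons and lack the promoter. Of 1605 annotated RP pseudogenes 2 held a summit without Dox (0.125%), against 16 of 13628 other pseudogenes (0.117%). At 24 h the counts were 2 (0.125%) against 26 (0.191%), at 48 h 5 (0.312%) against 96 (0.704%) and at 72 h 11 (0.685%) against 287 (2.11%). The shares were thus close to each other without Dox, and that of RP pseudogenes was the lower one at 48 and 72 h. RPL39P5 was the only one with a summit in all 4 lists. The median length was 479 bp for RP pseudogenes and 735 bp for the others, and the part of length in these shares was not tested.

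Motifs were counted in promoters, taken as the 250 bp upstream and 50 bp downstream of the main TSS, to describe the sequence that members share apart from TAZ. RP promoters held the ETS consensus CCGGAAG in 34.9% (30 of 86), against 14.1% of all protein-coding genes, the YY1 consensus AAGATGG in 17.4%, against 6.41%, and the palindromic CG element TCTCGCGA in 17.4% (15 genes), against 1.73%. The GC box of SP/KLF factors (GGGGCGGG) was less frequent, with 19.8% against 34.0%. TEAD (ACATTCC or GCATTCC) was found in 3.49% of RP promoters, against 5.04%, and AP-1 (TGACTCA or TGAGTCA) in 1.16%, against 3.57%. Among the others, NFY (CCAAT) had 31.4% against 36.1%, the TATA box (TATAAA) 9.30% against 9.71%, NRF1 (GCGCATGC) 6.98% against 4.27%, the E-box (CACGTG) 6.98% against 8.76%, ZNF143/THAP11 (ACTACAA) 5.81% against 2.99% and CREB (TGACGTCA) 4.65% against 2.69%. All were searched on both strands, and no motif is contained in another. Mitochondrial ribosomal protein genes had ETS in 41.0% and YY1 in 32.1%, but TCTCGCGA in 2.56%.

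**Figure D5:**
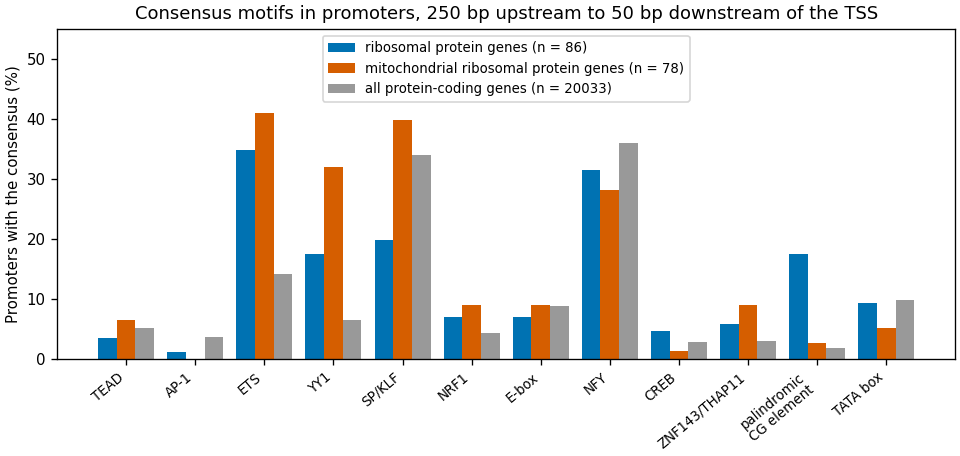
Share of promoters (%) with each of 12 consensus motifs, for 86 RP genes, 78 mitochondrial ribosomal protein genes and all 20033 protein-coding genes. The ETS bar of RP genes stands at 34.9% against 14.1% for all genes, the palindromic CG element at 17.4% against 1.73%, and TEAD at 3.49% against 5.04%.

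RP genes were also described at their annotated start of transcription. A run of at least 5 pyrimidines reaching within 3 bases of the main TSS was present at 71 of 86 RP genes (82.6%), against 28.5% of all protein-coding genes, and the annotated first base was C at 64 (74.4%), against 10.7%. The median tract was 11 bases, against 3. Mitochondrial ribosomal protein genes had a tract at 29.5% and a C at 11.5%. Tracts are shown in windows of 40 bp whose second part starts at the TSS, with the tract in capitals. RPS7, RPL29 and RPS3 had a high fold enrichment at this TSS, RPL36 had the highest value of 72 h at its alternative TSS and not at the one shown, and RPL27 is included because its annotated start lies outside such a tract. The windows are RPS7 (chr2:3575240-3575279, plus strand), RPL29 (chr3:51995876-51995915, minus strand), RPS3 (chr11:75399498-75399537, plus strand), RPL36 (chr19:5690275-5690314, plus strand) and RPL27 (chr17:42998399-42998438, plus strand).
RPS7, main TSS: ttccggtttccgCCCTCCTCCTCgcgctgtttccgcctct
RPL29, main TSS: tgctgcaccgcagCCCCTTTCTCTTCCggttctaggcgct
RPS3, main TSS: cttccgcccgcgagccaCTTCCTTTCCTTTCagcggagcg
RPL36, main TSS: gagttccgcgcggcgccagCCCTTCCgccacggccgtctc
RPL27, main TSS: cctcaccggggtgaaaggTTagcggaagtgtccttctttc

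Presence of a peak was then set beside the promoter motifs. Of the 30 RP genes with an ETS consensus in the promoter 9 were listed without Dox, against 5 of the 56 without it. Among the 9 were RPL6, RPL8, RPL26, RPL27A, RPL29, RPL37, RPS14 and RPS25. A listed peak need not lie in the promoter window that was read for motifs. Of these genes, RPL27A and RPL6 had their summits without Dox 6285 and 117 bp downstream of the main TSS, outside this window. Those of RPL26 and RPS14 lay outside it at 676 and 307 bp upstream. Among the 5 without the consensus, RPSA had its summit 99 bp downstream, outside the window as well. Other protein-coding genes were listed in 19.1% of cases with the consensus and in 6.67% without it. At 72 h the RP counts were 25 of 30 with ETS and 43 of 56 without, and the shares of other genes 78.7% and 49.2%. With the CG element 13 of 15 RP genes were listed at 72 h, against 55 of 71 without it, and with the GC box 11 of 17, against 57 of 69. Among other genes the shares were 82.2% with the CG element and 52.8% without it, and 65.7% with the GC box and 46.9% without it. The GC box thus went with a lower share among RP genes and with a higher one among other genes. All 3 genes with a TEAD consensus in the promoter, RPL6, RPL7A and RPS27A, were listed at 72 h, RPL6 at the main TSS and at its alternative TSS. For TEAD the shares of other genes at 72 h were 50.2% with the consensus and 53.5% without it. RPS27A had 14.0 and RPL7A 4.71.

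The windows of 100 bp to each side of the summits were read for the same motifs. Of the 68 strongest summits at 72 h, TEAD was present at 3 (4.41%, RPL6 at its alternative TSS, RPL7A and RPS27A), against 10.0% of other listed genes, and AP-1 at none, against 4.36%. ETS was present at 15 (22.1%), against 16.4%, and TCTCGCGA at 8 (11.8%), against 1.51%. Among the 8 were RPL4, RPL7A, RPL10A, RPL12, RPS15A, RPS19 and RPS28. Outside these 68 strongest summits, the weaker peak of RPL6 at its main TSS held TEAD and the minor peak of RPL3 held AP-1. The summits without Dox held TEAD in 0 of 14, against 6.20% of other listed genes, and ETS in 5 of 14 (35.7%), against 28.0%, among them RPL8, RPL27A, RPL29 and RPS25. At 24 h none of the 4 RP summits held any of the 12 motifs, while 40.1% of the 304 other listed genes had TEAD. At 48 h 1 of 6 held TEAD, at the alternative TSS of RPL6, against 38.8% of 1018 other genes, and 1 held ETS, at RPL37. The median GC content of the windows at 72 h was 62.7% for RP genes, against 67.2%. A match here is a string of letters in the reference and no measured site, and a missing match leaves degenerate sites unread.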

How the data were processed

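TAZ ChIP-seq of MCF10A cells with inducible TAZ-4SA, without Dox and after 24, 48 and 72 h with it, was analysed from 4 deposited peak lists with 1 TAZ library each. Libraries were grouped by their titles, and each list was read as that of the TAZ library, since the labels name it for both the TAZ and the IgG library. According to the study's methods and the processing notes, low-quality bases were trimmed, BWA aligned the reads to hg38, and MACS2 called the peaks with a false discovery rate of 0.01. Versions of BWA and MACS2, and the use of the IgG library as control, are not given in the sources read. Fold enrichment in the deposited lists is a ratio that the authors obtained from MACS2, which adds a pseudocount of 1 to signal and background. The p-value and the q-value of a peak were deposited by the authors as −log10 values, beside the summit offset.

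The study's methods give the sequencing depth as an average and not per library, so the fragment count over each summit (pileup) and the local background were solved from fold enrichment and p under the Poisson model, within 0.01 on the −log10 scale, for 100% of peaks. Over the lists in order of time the median summit pileup was 20, 24, 36 and 32 fragments, and the 95% Poisson intervals of such counts were 12.2 to 30.9, 15.4 to 35.7, 25.2 to 49.8 and 21.9 to 45.2. Coordinates are 1-based on hg38 with GENCODE version 44. Summits within 1 kb of a TSS were assigned to the gene, the strongest peak gave its fold enrichment, and motifs were searched as exact letters on both strands in pysam 0.24.0, with numpy 2.4.6, pandas 2.3.3 and scipy 1.17.1 under Python 3.11.15. The scripts were checked on simulated data. Comparisons are descriptions, since no condition had a replicate.

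RP genes could be named without regard to their values, and a few of them are not reported here by name. Full values were given for the 10 highest in each list, those listed at 24 or 48 h and those in no list, and neighbours were named where their TSS lay within 1 kb of a named site or TSS. Members and gene lists were chosen with earlier results of these data known. Alternatives were the set of TSS used, windows of 500 bp and 3 kb, a −log10 q of at least 10, assignment by overlap of the peak, thinning to the lowest background, and motif windows of 50 and 200 bp to each side.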

Additional observations from a re-analysis of the deposited data

How the results depend on the processing

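Of 157 values recomputed under 10 alternatives for 20 results, 131 stayed, 26 moved and 0 reversed. A count stayed when it was within 1.5 times of the main value. A median stayed when it lay within an interval of the main median over genes, here called the spread over genes. At 24 and 48 h this spread was the full range, 4.24 to 10.8 and 2.51 to 9.82, so these medians could hardly move. Only the median ratio could be labelled as reversed. The number of RP genes with a peak at 72 h and the median fold enrichments at 24 and 72 h stayed within 1.5 times. With a −log10 q of at least 10, the median fold enrichment was 10.7 without Dox and 7.29 at 48 h, against 5.54 and 4.06, and the median ratio of 72 h to no Dox was 1.04, against 1.68, all at or within the spread over genes. The 10.7 lay at the upper limit of its spread and the 1.04 at the lower limit. Under this bound RP genes with a peak numbered 5 without Dox, 2 at 24 h and 2 at 48 h, those with ETS at the summit 1 without Dox and 0 at 48 h, and those listed again 0 at 48 h and 5 at 72 h. A window of 500 bp gave 3 RP genes at 48 h, 0 with TEAD and 1 listed again. A window of 3 kb gave 10 at 48 h, 2 with TEAD, 2 with ETS and 6 listed again, and 6 with TEAD at 72 h. With the canonical TSS alone, 0 had TEAD and 1 was listed again at 48 h. Thinning to the lowest background with a −log10 p of at least 5.27 gave 2 at 48 h with a median fold enrichment of 6.24, 0 with ETS and 1 listed again. Motif windows of 50 bp to each side gave 0 with TEAD and 0 with ETS at 48 h and 9 with ETS at 72 h, and windows of 200 bp to each side gave ETS at 8 without Dox, 1 at 24 h and 2 at 48 h. The counts at 24 and 48 h rest on 4 and 6 genes with 16 to 47 fragments per summit, and 1 list per condition leaves the spread between cultures unknown. No paired analysis was possible because each condition has 1 list and no result comes from a test.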
